A study of Mus musculus with 12 samples.

Results

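The brush border disaccharidases and the sugar carriers of the intestine were followed through 12 libraries of ileal RNA. The set was chosen by name and holds 8 of the 35275 genes in the count table. It comprised the disaccharidase genes Lct, Sis, Treh and Mgam, the sugar carrier genes Slc5a1, Slc2a2 and Slc2a5, and Khk, the gene of ketohexokinase. All 8 were found in the table and all 8 had enough reads to be tested. The ileum, the last stretch of the small intestine, had been taken from C57BL/6 mouse pups on postnatal day 14. In pregnancy 3 dams had a daily restraint of 2 h in a ventilated tube, starting on gestational day 7 and ending on day 19, and 3 control dams stayed undisturbed in the home cage. Each dam gave 1 male and 1 female library, so that stressed males, control males, stressed females and control females had 3 libraries each. The words stressed and control refer to the dam, and pups are named by sex and by the number of their dam. Stressed male 1 and stressed female 1 are thus littermates, whereas no label links a stressed dam to the control dam of the same number.

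Dietary disaccharides are split at the surface of the microvilli of enterocytes, the absorptive cells of the villus. Lactase, the product of Lct, splits the lactose of milk. Sucrase-isomaltase (Sis) splits sucrose, both it and maltase-glucoamylase (Mgam) split the breakdown products of starch, and trehalase (Treh) splits trehalose. SGLT1, the product of Slc5a1, then carries glucose and galactose into the cell together with sodium. GLUT5 (Slc2a5) carries fructose, GLUT2 (Slc2a2) carries all of these sugars and is best known for the basolateral side of the cell, and ketohexokinase (Khk) phosphorylates fructose once it is inside. In suckling rodents lactase is high and sucrase is low, and the balance turns at weaning. Along the length of the small intestine lactase and sucrase are higher in the jejunum than in the distal ileum.

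The starts of these genes are shown first because transcription factors of the GATA, HNF1, CDX and HNF4 families are known to act at intestinal promoters of this kind. Of the 8 genes all 8 had a window in the RefSeq table for GRCm38.p6, each of 300 bases, 250 of them before the annotated transcription start and 50 from its first base on. The windows below belong to the most abundant disaccharidase genes, to Sis, and to the pair of genes whose levels ran most closely together, Slc5a1 and Khk. They lie at chr1:128328269-128328568 (Lct, minus strand), chr3:72967814-72968113 (Sis, minus strand), chr6:40628581-40628880 (Mgam, plus strand), chr5:33103969-33104268 (Slc5a1, plus strand) and chr5:30921309-30921608 (Khk, plus strand). Each is written 5′ to 3′ on the strand of the gene, and capitals mark every match of the motifs named after them.
Lct: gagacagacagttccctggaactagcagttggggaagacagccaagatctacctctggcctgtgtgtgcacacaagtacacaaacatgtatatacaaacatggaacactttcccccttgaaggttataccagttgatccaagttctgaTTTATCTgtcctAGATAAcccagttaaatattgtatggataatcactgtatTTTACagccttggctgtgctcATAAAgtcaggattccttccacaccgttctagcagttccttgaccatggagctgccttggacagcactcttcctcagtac
Sis: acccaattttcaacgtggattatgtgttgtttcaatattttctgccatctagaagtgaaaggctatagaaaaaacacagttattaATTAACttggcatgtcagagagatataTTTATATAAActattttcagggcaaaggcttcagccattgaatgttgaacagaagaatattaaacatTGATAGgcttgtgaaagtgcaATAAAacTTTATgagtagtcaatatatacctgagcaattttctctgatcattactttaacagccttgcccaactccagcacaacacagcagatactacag
Mgam: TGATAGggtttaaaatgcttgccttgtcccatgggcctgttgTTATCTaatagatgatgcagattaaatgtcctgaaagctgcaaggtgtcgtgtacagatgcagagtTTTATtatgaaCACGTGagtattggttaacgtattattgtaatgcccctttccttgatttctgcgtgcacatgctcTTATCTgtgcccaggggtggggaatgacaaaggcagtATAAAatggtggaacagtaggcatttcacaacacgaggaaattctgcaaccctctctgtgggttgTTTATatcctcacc
Slc5a1: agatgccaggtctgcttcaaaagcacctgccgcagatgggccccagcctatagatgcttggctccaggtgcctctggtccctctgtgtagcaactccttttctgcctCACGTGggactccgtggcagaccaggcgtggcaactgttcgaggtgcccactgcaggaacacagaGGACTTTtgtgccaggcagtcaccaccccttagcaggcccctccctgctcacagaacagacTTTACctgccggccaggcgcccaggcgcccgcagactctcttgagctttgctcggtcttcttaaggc
Khk: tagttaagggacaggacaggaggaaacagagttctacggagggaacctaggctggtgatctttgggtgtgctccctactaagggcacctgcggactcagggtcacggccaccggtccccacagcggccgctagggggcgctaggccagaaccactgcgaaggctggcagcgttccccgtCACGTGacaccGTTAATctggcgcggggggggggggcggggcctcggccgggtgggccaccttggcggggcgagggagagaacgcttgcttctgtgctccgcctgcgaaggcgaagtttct

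Short runs of letters known for these factors were searched on both strands. GATA factors bind a core that was written as AGATAA or AGATAG, or with another first base as TGATAA or TGATAG. It stood in 4 of the 8 windows, those of Lct, Sis, Mgam and Slc2a2, and in 29.8% of the 32851 windows of the table. Mgam held 3 such matches, Lct 2, and Sis and Slc2a2 1 each. CDX letters, written as TTTAT or TTTAC, stood in 5 of the 8 and in 54.7% of all windows, with 4 matches in Sis, 3 in Lct, 3 in Mgam, and 1 each in Slc5a1 and Slc2a2. They are short, and on the other strand they read like part of a TATA box. In Lct and Mgam such a match began 30 and 29 bases before the start. The first Lct capitals hold a CDX match and a GATA match that overlap. Letters of one arm of an HNF1 site, GTTAAT, were found in Sis and Khk and in 7.10% of all windows. Letters of an HNF4 site, AAAGTCC, were found in Treh, with 2 matches, and in Slc5a1, with 1, and in 4.21% of all windows. An E box, CACGTG, was found in Mgam, Slc5a1 and Khk and in 7.15% of all windows. The window of Slc2a5 held none of these letters. The windows of Sis, Mgam and Lct were poor in G and C, at 34%, 43% and 44.7%, and those of Khk and Slc2a5 were rich, at 65.7% and 65.3%, against a median of 52.7% over all windows.

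**Figure D1:**
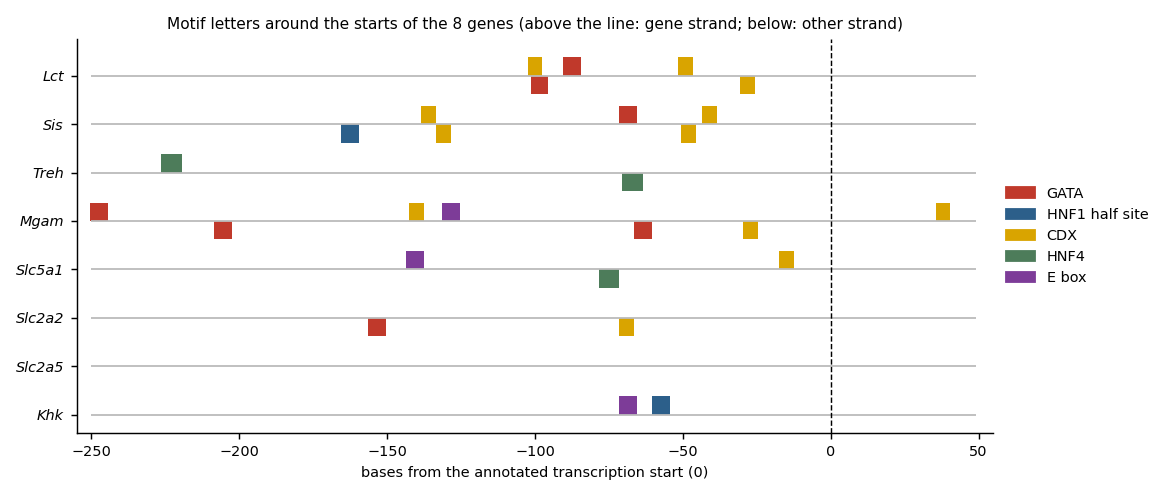
Places of the motif letters in the 8 promoter windows, in bases from the annotated transcription start; boxes above a line are matches on the strand of the gene and boxes below it matches on the other strand. Lct, Sis, Mgam and Slc2a2 carry CDX and GATA letters together, Mgam, Slc5a1 and Khk each carry an E box, and Slc2a5 carries none of the 5 motifs.

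Library totals ran from 16423523 to 22975526 counts. The labelled tissue was checked on marker lists. Epithelial markers (Vil1, Epcam and 7 others) summed to 8649 to 10334 CPM (counts scaled to library size, here by TMM) in the 10 libraries outside control dam 3, and markers of the suckling ileal enterocyte (Cubn, Amn, Fabp6 and 6 others) to 3180 to 4582 CPM. Both pups of control dam 3 stood apart. Markers of the proximal small intestine (Fabp1, Gata4, Adh1, Onecut2, Cyp8b1 and Pdx1) summed to 1693 CPM in control male 3 and to 252 CPM in its sister, while the other 10 libraries held 14.0 to 21.9 CPM. For 4 of these 6 markers both pups lay above the other 10 libraries, and Fabp1 alone reached 1404 CPM in control male 3. Fabp6, a bile acid binding protein of the ileum, was at 0.716 CPM in the male and at 61.0 CPM in the female of this litter, while the others spanned 29.9 to 607.7 CPM. It is 1 of the 9 ileal enterocyte markers, and 0 of these 9 lay below the other 10 libraries in both pups. The 10 exocrine pancreas markers summed to 69.6 and 60.8 CPM in these pups against 8.74 to 27.6 CPM, with Cela2a, Cpa1, Prss2 and Pnlip at 0 in all 12 libraries. The colon list (Car1, Car4, Slc26a3, Aqp8) summed to 116 and 124 CPM against 19.4 to 70.7 CPM. Goblet and Paneth cell markers (Muc2, Tff3, Clca1, Lyz1, Defa24) summed to 2888 and 3578 CPM against 464 to 2574 CPM, while the smooth muscle and liver lists of this litter lay within the range of the others. The epithelial list summed to 12049 and 10703 CPM. The ileal enterocyte list summed to 3702 CPM in the male, within the range of the others, and to 6644 CPM in the female, above it. Kidney, a known site of Treh, Slc2a2 and Khk, left no more than 0.544 CPM of its 4 markers in any library, and Umod was at 0 throughout. Because of these pups the fold changes of the 8 genes and the medians of the gene lists are given with control dam 3 and without it.

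Lactase RNA was present at 26.1 FPKM or more in every pup. Lct (chromosome 1, 128284756 to 128328318, minus strand, GRCm38) had 49.7, 84.95 and 40.7 FPKM in stressed males 1, 2 and 3, against 33.1, 51.3 and 743 FPKM in control males 1, 2 and 3. FPKM is the read count divided by exonic length and library total, so levels of different genes can be set side by side in it. Stressed females 1, 2 and 3 had 35.9, 61.2 and 26.1 FPKM, against 34.4, 77.7 and 358 FPKM in control females 1, 2 and 3. The 10 pups outside control dam 3 thus lay within a 3.26-fold range of each other, and the stressed pups overlapped the controls of dams 1 and 2 in both sexes.

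Sucrase-isomaltase RNA was scarce outside control dam 3. Sis (chromosome 3, 72888557 to 72967863, minus strand) had 1.53, 3.14 and 1.43 FPKM in stressed males, against 0.597, 2.33 and 145.6 FPKM in control males. Stressed females had 1.43, 2.36 and 1.73 FPKM, against 2.08, 2.05 and 13.3 FPKM in control females. Only the pups of control dam 3 were high, and of these the male exceeded the female 11.9-fold in CPM. Lct RNA per length was 15.0 to 55.5 times that of Sis in the other 10 pups, 5.10 times in control male 3, and 26.9 times in control female 3, which lay within the range of the 10.

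Trehalase RNA was scarce as well. Treh (chromosome 9, 44673233 to 44686305, plus strand) had 0.827, 2.22 and 0.416 FPKM in stressed males, against 0.868, 1.70 and 42.6 FPKM in control males. Stressed females had 1.41, 1.59 and 1.11 FPKM, against 0.914, 1.58 and 3.99 FPKM in control females. Outside control dam 3 these values rest on 14 to 90 reads a library, and the gene overlaps Phldb1 on the opposite strand. Whether the counting used strand is not stated by the labels or the processing notes.

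Maltase-glucoamylase was the exception among the disaccharidases. Mgam (chromosome 6, 40628831 to 40769123, plus strand) had 139, 81.3 and 204 FPKM in stressed males, against 78.1, 97.3 and 99.8 FPKM in control males. Stressed females had 65.6, 86.6 and 90.8 FPKM, against 74.4, 94.8 and 73.6 FPKM in control females. The highest pups were stressed males 3 and 1, and in CPM control male 3 ranked 3rd and control female 3 ranked 10th of the 12.

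**Figure D2:**
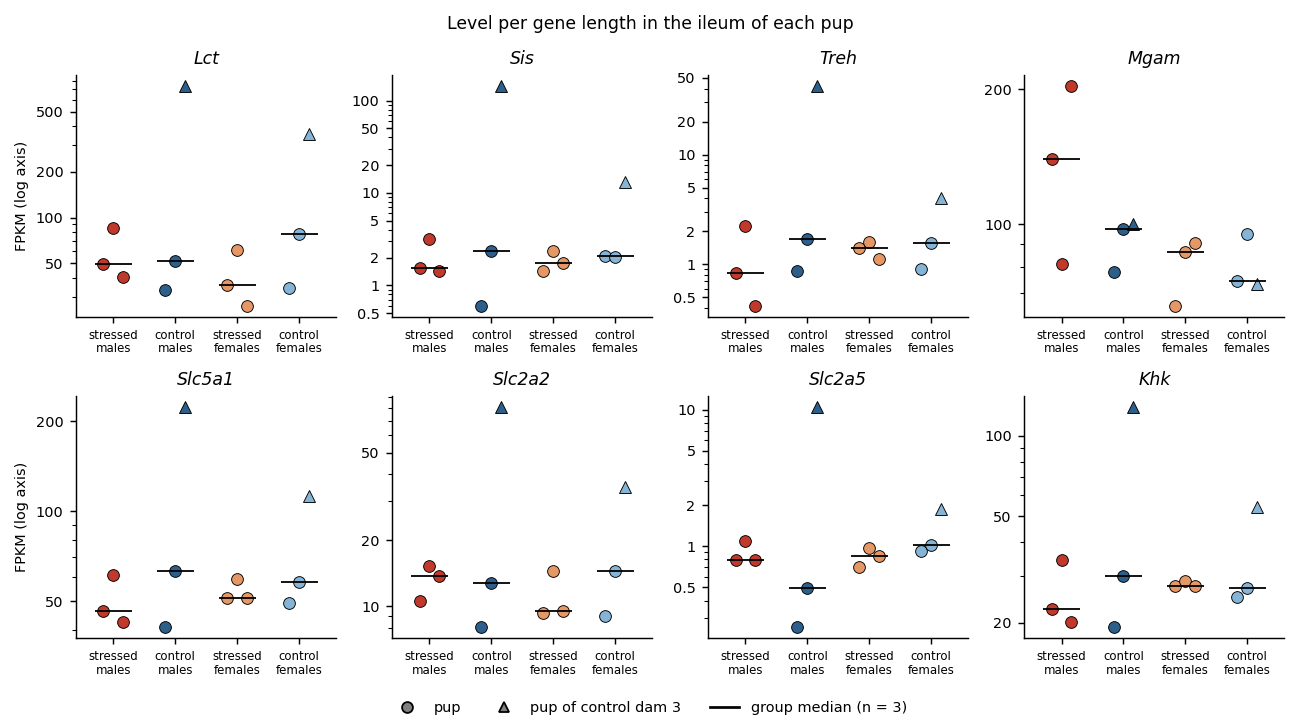
FPKM of the 8 genes in each of the 12 pups on log axes, by group; lines are group medians (n = 3) and triangles are the 2 pups of control dam 3. In every panel except Mgam the triangles lie above all other pups, and Mgam is highest in stressed males 3 and 1, at 204 and 139 FPKM.

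As shares of the summed FPKM of the 4 disaccharidase genes, Mgam made up 47.4% to 82.7% and Lct 16.5% to 49.5% in the 10 pups outside control dam 3. Mgam exceeded Lct in 9 of these 10, stressed male 2 being the exception. In control male 3 Lct made up 72.1%, Sis 14.1%, Mgam 9.68% and Treh 4.13%. In control female 3 Lct made up 79.7%, Mgam 16.4%, Sis 2.96% and Treh 0.889%. The sum itself was 1031 FPKM in the male and 448 FPKM in the female of control dam 3, against 104 to 247 FPKM in the other pups.

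**Figure D3:**
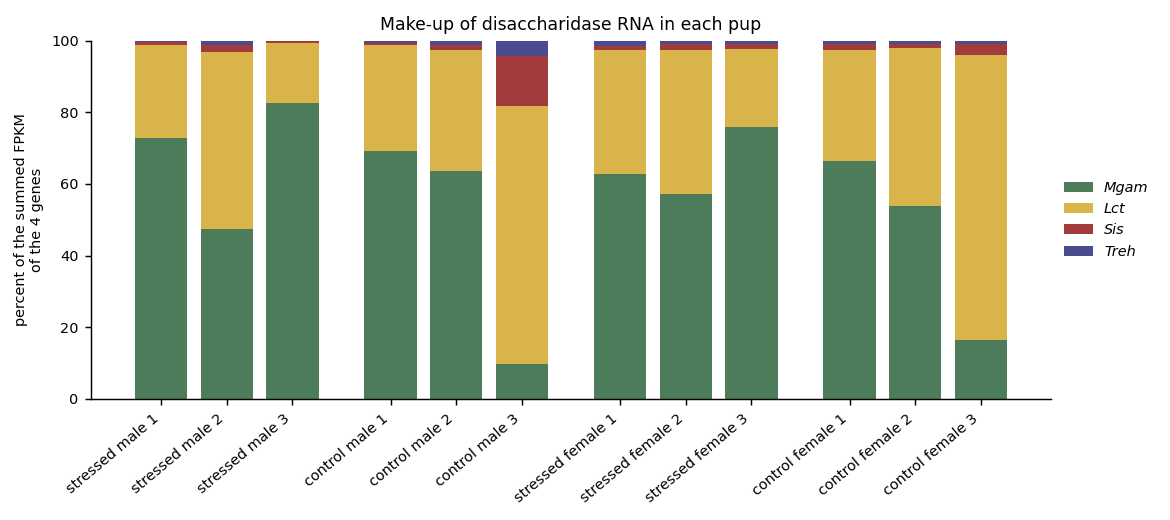
Share of each disaccharidase gene in the summed FPKM of the 4 genes, in percent, one bar per pup. Mgam fills 47.4% to 82.7% of the bar in the 10 pups outside control dam 3, and Lct fills 72.1% and 79.7% in the male and female of control dam 3.

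Among the carriers SGLT1 RNA was the most abundant and varied little outside control dam 3. Slc5a1 (chromosome 5, 33104219 to 33162872, plus strand) had 46.2, 61.1 and 42.6 FPKM in stressed males, against 40.9, 63.0 and 224 FPKM in control males. Stressed females had 51.3, 59.1 and 51.2 FPKM, against 49.4, 57.7 and 112 FPKM in control females. The 10 pups outside control dam 3 lay within a 1.54-fold range. The gene overlaps Gm15936 on the same strand and 5033423K11Rik on the other.

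GLUT2 RNA stood at a lower level than SGLT1 RNA in every pup. Slc2a2 (chromosome 3, 28697903 to 28728356, plus strand, overlapped by 1700112D23Rik on the other strand) had 10.6, 15.2 and 13.8 FPKM in stressed males, against 8.04, 12.7 and 81.0 FPKM in control males. Stressed females had 9.33, 14.4 and 9.52 FPKM, against 9.02, 14.5 and 34.8 FPKM in control females. Again the control males of dams 1 and 2 and the stressed males overlapped.

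GLUT5 RNA was the least abundant of the carriers in every pup. Slc2a5 (chromosome 4, 150119283 to 150144169, plus strand) had 0.788, 1.09 and 0.790 FPKM in stressed males, against 0.256, 0.494 and 10.5 FPKM in control males. Stressed females had 0.710, 0.974 and 0.854 FPKM, against 0.923, 1.02 and 1.88 FPKM in control females. Control males 1 and 2 were the lowest of the 12 pups, with 15 and 31 reads, and the other pups outside control dam 3 had 41 to 68 reads.

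Khk (chromosome 5, 30921556 to 30931246, plus strand), which acts on the fructose that GLUT5 brings in, was far more abundant than Slc2a5. It had 22.5, 34.3 and 20.1 FPKM in stressed males, against 19.3, 29.9 and 129 FPKM in control males. Stressed females had 27.6, 28.8 and 27.6 FPKM, against 25.1, 27.1 and 54.4 FPKM in control females. The 3 stressed females lay within a 1.04-fold range of each other.

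Without control dam 3 the mean levels per length ran in the order Mgam (101 ± 41.3 FPKM), Slc5a1 (52.3 ± 7.74), Lct (49.5 ± 19.7), Khk (26.2 ± 4.61), Slc2a2 (11.7 ± 2.69), Sis (1.87 ± 0.690), Treh (1.26 ± 0.530) and Slc2a5 (0.790 ± 0.253; SD, n = 10 pups). The ranges of neighbours overlapped between Slc5a1 and Lct, between Lct and Khk, between Sis and Treh and between Treh and Slc2a5. The ranges over pups thus do not tell these neighbours apart. Their order within each pup was not part of this comparison. The ranges did not overlap between Mgam and Slc5a1, between Khk and Slc2a2 or between Slc2a2 and Sis. The same order held for the means of the 6 stressed pups and of the 4 control pups of dams 1 and 2. Slc5a1 made up 74.5% to 83.6% of the summed FPKM of the 3 carriers outside control dam 3, and 71.0% and 75.4% in control male 3 and control female 3.

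The excess in control dam 3 differed in size between the genes. Relative to the median of the other 10 pups, control male 3 and control female 3 had 90.9 and 7.63 times as much Sis in CPM, 40.3 and 3.46 times as much Treh, and 18.3 and 8.10 times as much Lct. For the carriers the multiples were 14.5 and 2.38 for Slc2a5, 7.96 and 3.15 for Slc2a2, and 5.19 and 2.39 for Slc5a1, and for Khk they were 5.58 and 2.17. Mgam had 1.32 and 0.895 times the median. Both pups lay above all other 10 for 7 of the 8 genes, against 1586 of the 16102 genes tested (9.85%), and below them for none, against 1195 genes (7.42%). The male pup was higher than its sister for all 8 genes, by 1.47-fold for Mgam and by 2.17-fold to 11.9-fold for the others. The markers of proximal small intestine moved with this excess, as given above, and their part in it was not tested. The libraries are of bulk tissue, in which fewer cells of a type and less RNA per cell cannot be told apart.

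The question of the design was whether stress of the pregnant dam alters the ileum of its offspring. Over litters, with the counts of both pups of a dam summed, the 7 genes other than Mgam had lower means in stressed than in control litters and Mgam had a higher one, but none passed the test. Adjusted over 16749 genes, the p from edgeR's quasi-likelihood test was 1.00 for each of the 8, and 0 of 8 were called, as were 0 of all genes (0% called). The log2 fold change was -2.21 ± 1.00 for Lct, -3.83 ± 1.48 for Sis, -2.74 ± 1.17 for Treh and 0.29 ± 0.21 for Mgam (SE, 3 against 3 dams). It was -0.86 ± 0.48 for Slc5a1, -1.20 ± 0.67 for Slc2a2, -1.55 ± 0.85 for Slc2a5 and -0.86 ± 0.51 for Khk. At an unadjusted p under 0.05 stood 1 of the 8 genes, Sis, and 228 of all genes (1.36%). Stressed and control litters overlapped for all 8 genes, whereas 957 of 16749 genes (5.71%) did not overlap.

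In males the differences of the means were larger for each of the 8 genes, and control male 3 was again the highest pup for 7 of them. The log2 fold change of stressed against control males was -2.41 ± 1.14 for Lct, -4.79 ± 1.64 for Sis, -3.87 ± 1.29 for Treh and 0.59 ± 0.30 for Mgam (SE, 3 against 3 pups). It was -1.25 ± 0.57 for Slc5a1, -1.50 ± 0.78 for Slc2a2, -2.23 ± 1.05 for Slc2a5 and -1.34 ± 0.62 for Khk. The adjusted p was 0.752 for each (edgeR, over 16102 genes), 0 of 8 were called and so were 0 of all genes (0% called). Sis, Treh and Slc5a1 were among the 1028 genes (6.38%) with an unadjusted p under 0.05. By DESeq2's Wald test 3 of the 8, Lct, Slc5a1 and Khk, were at an unadjusted p under 0.05, as were 1136 of the 16102 genes fitted. Sis, Treh and Slc2a5 received no p from it. By limma-voom none of the 8 was at an unadjusted p under 0.05, against 868 of 16102 genes. Both of these tools called 0 genes over litters, in males, in females and in the difference between the sexes. No member had groups apart in males, against 913 of 16102 genes (5.67%).

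In females the log2 fold change was -2.02 ± 1.13 for Lct, -1.74 ± 1.46 for Sis and -0.88 ± 0.77 for Slc2a2. It lay between -0.73 and -0.03 for the other 5 genes, with SE from 0.30 to 1.21. The adjusted p was 1 for each (edgeR), and 0 of 8 and 0 of 16102 genes were called (0% called). None of the 8 had an unadjusted p under 0.05, against 48 of all genes (0.298%), and none had groups apart, against 895 genes (5.56%). The change in males minus that in females was -3.05 ± 2.05 for Sis, -3.14 ± 1.72 for Treh, -1.59 ± 1.45 for Slc2a5 and 0.62 ± 0.43 for Mgam. It passed the test for none of the 8 (adjusted p = 0.999 for each, edgeR), 0 of 16102 genes were called (0% called), and at an unadjusted p under 0.05 stood 346 genes (2.15%) and no member.

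Without control dam 3 the differences of the litters were near 0 for all but Mgam and Slc2a5, and none passed the test. The log2 fold change over litters became -0.01 ± 0.36 for Lct, 0.10 ± 0.30 for Sis and 0.01 ± 0.39 for Treh. Of the other genes it was -0.02 ± 0.16 for Slc5a1, 0.11 ± 0.23 for Slc2a2, 0.32 ± 0.22 for Slc2a5, 0.08 ± 0.15 for Khk and 0.34 ± 0.23 for Mgam (SE, 3 against 2 dams). The 95% interval of this value ran from -0.39 to 0.35 for Slc5a1 and from -0.27 to 0.43 for Khk. For Lct it was wider, at -0.85 to 0.83.

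Within a sex the values spread more widely, Slc2a5 in males standing farthest from 0, and again none passed the test. In males without both pups of control dam 3 the log2 fold change was 0.48 ± 0.46 for Lct, 0.49 ± 0.50 for Sis, -0.14 ± 0.57 for Treh, -0.04 ± 0.21 for Slc5a1, 0.37 ± 0.29 for Slc2a2 and 0.08 ± 0.22 for Khk. For Mgam it was 0.73 ± 0.36, with an adjusted p of 0.774 (edgeR). Slc2a5 was at 1.26 ± 0.33 with an adjusted p of 0.774 (edgeR), on the 15 and 31 reads of control males 1 and 2, and it was the 1 member among the 948 of 16275 genes (5.82%) with an unadjusted p under 0.05 in this fit. In females its log2 fold change was -0.20 ± 0.29 in the same fit, and the change in males minus that in females was 1.45 ± 0.44 with an adjusted p of 0.851 (edgeR). That difference was 0.65 ± 0.70 for Sis, -0.27 ± 0.80 for Treh and 0.79 ± 0.50 for Mgam, and Slc2a5 was the 1 member among the 645 genes (3.96%) with an unadjusted p under 0.05 for it. In these females the 8 genes lay between -0.46 and 0.14, and no member was among the 52 genes (0.32%) with an unadjusted p under 0.05.

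**Figure D4:**
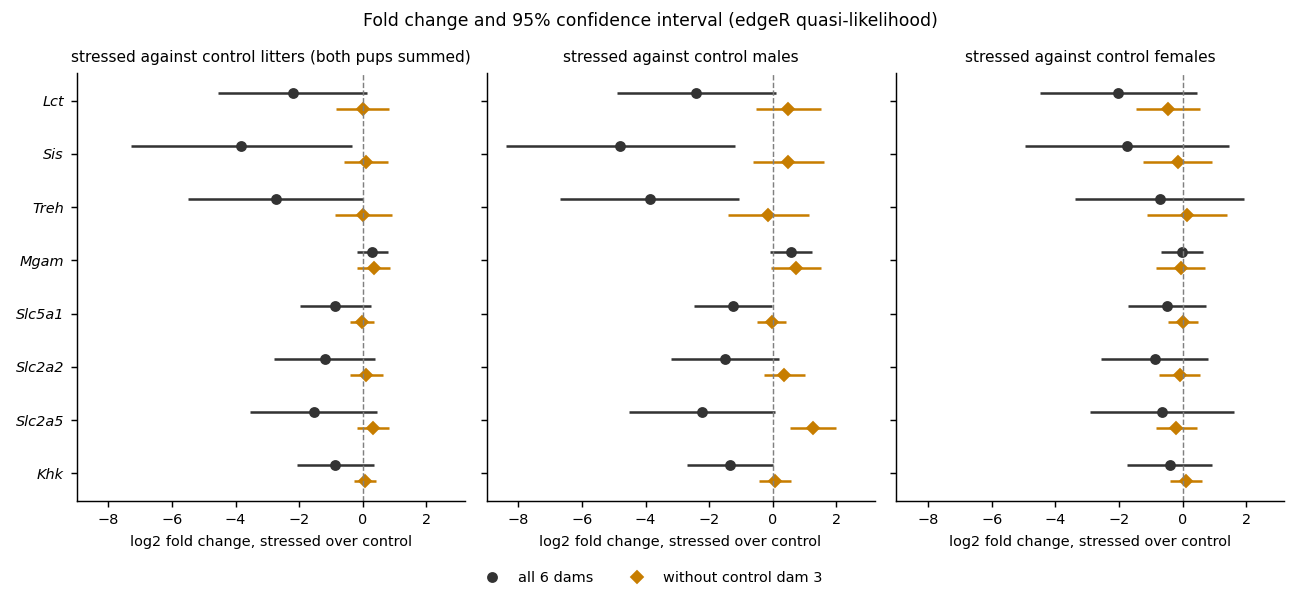
log2 fold change of stressed over control (edgeR) with its 95% confidence interval for the 8 genes, over litters, in males and in females; circles use all 6 dams and diamonds leave out control dam 3. The circles of all genes but Mgam lie below 0, and over litters the diamonds lie between -0.02 and 0.34.

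Mgam was the 1 gene whose mean was higher in stressed males with all dams in the fit. In CPM it had 914, 514 and 1381 in stressed males, against 508, 619.8 and 739.7 in control males, so that stressed male 2 lay below 2 of the 3 control males. Stressed males 3 and 1 also gave the largest shares of reads to Yam1, a noncoding RNA, at 4.13% and 1.39%, followed by control male 1 at 1.00%, against 0.171% to 0.5% in the other 9. They gave 1.16% and 2.18% of reads to mitochondrial genes, against 3.01% to 4.59% in the other 10. The 1205 other genes of at least the exonic length of Mgam (6488 bases) and 10 CPM stood at median log2 deviations of 0.59 and 0.39 in these males, while the other libraries spanned -0.30 to 0.10. For 1220 genes of up to 1500 bases the same medians were -0.43 and -0.28, against -0.14 to 0.28. These library traits were looked at after the Mgam values were seen, and their part in the Mgam level was not tested.

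**Figure D5:**
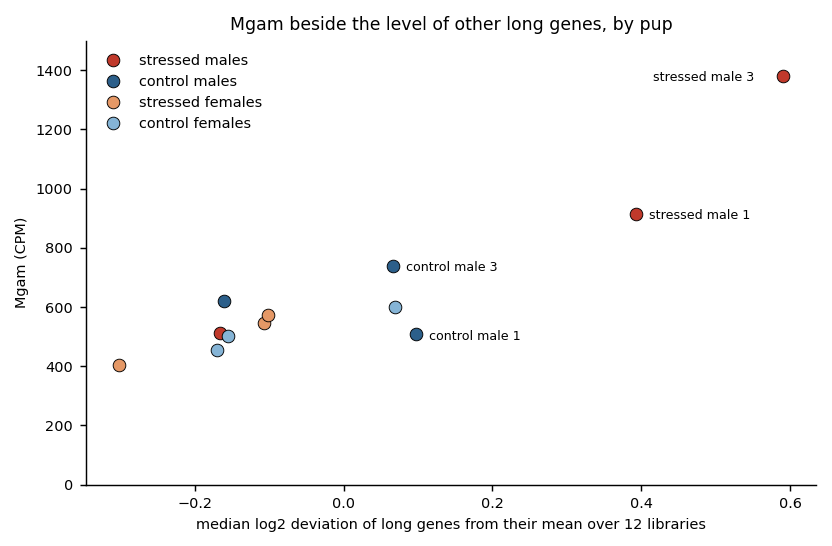
Mgam in CPM against the median log2 deviation of 1205 other long genes from their means over the 12 libraries, one point per pup. Stressed males 3 and 1 are highest on both axes, at 1381 and 914 CPM and at deviations of 0.59 and 0.39.

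Between the sexes Mgam had 914, 514, 1381, 508, 619.8 and 739.7 CPM in males and 403, 547, 574, 456, 601.7 and 501.6 CPM in females, in the order of stressed dams 1 to 3 and control dams 1 to 3. The male exceeded its sister in 5 of 6 litters, by 2.41-fold and 2.27-fold in stressed dams 3 and 1, 1.47-fold in control dam 3 and up to 1.11-fold in control dams 1 and 2. In stressed dam 2 the ratio was 0.938. The log2 fold change of males against females was 0.57 ± 0.21 with an adjusted p of 0.411 (edgeR), and 0 of the 8 genes passed, against 8 of 16102 genes (0.0497%). Mgam was the 1 member among the 1929 genes (12%) with an unadjusted p under 0.05. Without both pups of control dam 3 its log2 fold change was 0.49 ± 0.25 and it was no longer among them. The 1 member among the 991 of 16275 genes (6.09%) was then Slc2a5, at -0.59 ± 0.22 against 0.92 ± 0.73 with all dams, so that its sign turned. Among the fits run Mgam passed only when stressed male 2 was left out, with an adjusted p of 0.0368 (edgeR). That fit called 1384 of 16389 genes, 954 of them higher and 430 lower in males. Lct was higher in the male in 5 of 6 litters, with ratios from 0.662 to 2.26, and Slc5a1, Slc2a5 and Khk in 3 of 6. No member had the sexes apart, against 41 genes (0.255%).

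The genes most like each member in pattern were found by the root mean square difference of log2 CPM over the 12 libraries, each gene centred on its own mean, among 13451 genes. For Lct they were Cyp2c65, Apol7a and Sectm1b, with a difference of 0.28 for the nearest. Sis was nearest to Apol10a (0.47), Gpt and Mme, and Treh to Gpt (0.41), Sectm1b and Abhd3. Slc5a1 was nearest to Arsg (0.10), Mttp and Sec14l2, and Khk to Arsg (0.12), Soat2 and Gyk. Slc2a2 was nearest to Btnl2 (0.26), Ly75 and Mfsd7b, and Slc2a5 to Ces2a (0.40), Slc4a5 and Ces2c. Mgam was nearest to Cbl (0.12), Mgat5 and Ints1. Within the set Slc5a1 and Khk differed least, by 0.10 over the 12 libraries and by 0.09 over the 10 libraries without control dam 3. Over these 10 the nearest gene was another one for every member, Cyp4f14 for Lct, Havcr2 for Sis, Tmigd1 for Treh, Map3k13 for Mgam, Ugt2b34 for Slc5a1, P2ry2 for Slc2a2, Cbln3 for Slc2a5 and St3gal6 for Khk.

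Genes next to these in the handling of sugar were counted by list. None of the 6 lists had a gene past the test in either direction over litters, in males or in females, against 0% of all genes. Among 9 genes of fructose and galactose metabolism 8 were below 0 over litters, with a median log2 fold change of -0.13 against 0.00 over all genes, and 7 of 9 were below 0 without control dam 3 (median -0.05). Both pups of control dam 3 lay above the other 10 for 4 of the 9 genes and below them for 1, against 9.85% and 7.42% of all genes tested. Galk1, galactokinase, was lower in both pups of control dam 3 than in the other 10, at 196 and 183 CPM against 198 to 311 CPM. Ugp2, which makes UDP-glucose, overlapped between these pups and the others, at 195 and 224 CPM against 169.6 to 225 CPM. In males all 9 genes of this list lay below 0 with control dam 3 (median -0.24) and without it (-0.23), and in females 9 of 9 lay above 0 without it (median 0.06). Of all 16275 genes in the fit without this dam, 7795 lay below 0 in males and 8018 above 0 in females. The list summed to 1373, 1696 and 1236 CPM in stressed males 1, 2 and 3, against 1664 and 1794 CPM in control males 1 and 2. Stressed male 2 thus lay between these controls. Stressed males 1 and 3 are the most Yam1-rich libraries described with Mgam. Control male 1, at 1664 CPM for this list, came next in its share of Yam1, at 1.00% of reads. The part of that trait here was not tested.

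Of 11 tested genes of glucose use and storage 9 were below 0 over litters, with a median of -0.11, and 8 of 11 without control dam 3 (median -0.04). Pck1, the gluconeogenic enzyme PEPCK, had 1247 and 818 CPM in control male 3 and control female 3 against 149.5 to 324 CPM, and Fbp1, fructose bisphosphatase, 332 and 292 CPM against 130.2 to 253 CPM. Pklr, a pyruvate kinase, overlapped at 275 and 235 CPM against 219 to 285 CPM. Of 13 tested other sugar carriers 6 were below 0 and 7 above, with a median of 0.04, and without control dam 3 it was 7 and 7 of 14 tested (median 0.0048). Slc5a11, a sodium-coupled inositol carrier, had 129 and 62.2 CPM against 20.5 to 47.2 CPM, Slc2a8 (GLUT8) 28.3 and 38.2 CPM against 28.1 to 43.5 CPM, and Slc2a1 (GLUT1) was lower, at 14.7 and 18.5 CPM against 26.6 to 38.5 CPM.

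Of 8 tested genes of sugar sensing 7 were below 0, with a median of -0.19, and 5 of 8 without control dam 3 (median -0.03). Of the 11 listed, both pups of control dam 3 lay above the other 10 for 4 and below them for 1. Txnip, a glucose-responsive arrestin, had 260.4 and 284 CPM in the pups of control dam 3 against 145 to 250.1 CPM, and Pdzk1, a scaffold of brush border carriers, 214 and 215 CPM against 134 to 183 CPM. Arrdc4, an arrestin close to Txnip, lay below the others, at 134 and 187.2 CPM against 187.7 to 260.0 CPM. Of 13 transcription factors 10 were below 0, with a median of -0.07, and 9 of 13 without control dam 3 (median -0.06). Hnf4a, Cdx2 and Cdx1, the most abundant, had log2 fold changes of -0.07, -0.04 and -0.03, and in the pups of control dam 3 all 3 lay within the range of the other 10. For 5 of the 13 both these pups lay above the others and for 1 below, against 9.85% and 7.42% of all genes tested. Of 11 tested other brush border hydrolases 9 were below 0, with a median of -0.36 over litters and -0.00 without control dam 3. Both pups of control dam 3 lay above the other 10 for 10 of the 13 hydrolases, against 9.85% of all genes tested. Alpi, intestinal alkaline phosphatase, had 1769 and 2118 CPM against 945 to 1725 CPM, whereas the peptidases Naaladl1 and Mep1a had 1101 and 2467 CPM against 909 to 2522 CPM, and 627 and 1133 CPM against 976 to 1594 CPM.

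Fitted on the log scale, the fold changes over litters were smaller: limma-voom gave -1.25 for Lct, -1.71 for Sis, -1.35 for Treh and -0.70 for Slc2a5. The authors' deposited table gave smaller values of the same sign as the edgeR fit of summed litters, and its headers do not state how they were estimated. Its log2 fold changes of stressed against unstressed offspring were -0.25 for Lct, -0.21 for Sis, -0.23 for Treh, 0.19 for Mgam, -0.38 for Slc5a1, -0.28 for Slc2a2, -0.22 for Slc2a5 and -0.34 for Khk. In the authors' deposited table the adjusted p was 0.9996 for the 5 genes that received one, and Sis, Treh and Slc2a5 received none. The unadjusted p in the authors' deposited table was 0.019 for Lct, 0.016 for Slc5a1, 0.037 for Slc2a2, 0.026 for Khk and 0.226 for Mgam. The share of all genes at such values was not counted there. In males the authors' deposited table held an adjusted p for Mgam, Slc5a1 and Khk alone, at 0.99993, and in females for all but Sis, at 1.0.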

How the data were processed

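Ileal RNA of 12 mouse pups was sequenced. The deposited count table holds the authors' raw counts per gene, and the deposited FPKM table equals those counts divided by gene length and library total (240813 nonzero values, within 1e-06). The authors' deposited table of comparisons gives log2 fold changes and, per the file headers, raw and adjusted p-values. The builds GRCm38 and mm10 and the tools HTSeq 0.6.1, STAR 2.5, TopHat, edgeR 3.16.5 and DESeq2 appear in the submitters' processing notes. The strand setting of the counting is not stated there.

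Counts were tested in R 4.3.3 with edgeR 4.0.16 (TMM scaling, filterByExpr, quasi-likelihood F test, Benjamini and Hochberg adjustment over all tested genes, threshold 0.05). The 4 groups were fitted together (8 residual degrees of freedom), which gave the comparisons in males, in females, between these, and between the sexes. Over litters the counts of littermates were summed (16749 genes). SE is the size of the log2 fold change over the root of F. The tests were tested on simulated counts. Members and gene lists were chosen with earlier results of these data known. Every member is named. From other lists, where no gene passed, the 3 of highest mean FPKM are named (1 of these genes is not reported here), and likeness took the 3 nearest genes of at least 1 CPM. Dak stands in the table for the gene now called Tkfc. Alternatives were limma-voom (limma 3.58.1), limma on log2(FPKM + 0.1) or log2(FPKM + 1), DESeq2 1.42.0, median-ratio size factors, keeping all genes or only those of mean 1 CPM or more, blocks of the dam number or the litter, 12 pups with sex as a covariate, 1 sex alone, each library or dam left out, and 2 sets of libraries left out.

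Littermates pair by the labels. Across genes the correlation of deviations from group means ran from -0.362 to 0.545 between littermates. Between pups of equal number across the treatments it ran from -0.329 to 0.306. That range lies within the range of littermates, so these correlations cannot decide whether the number pairs stressed with control dams. The labels give no such pairing. Values of Treh and Slc2a5 rest on at most 90 reads a library outside control dam 3.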

Additional observations from a re-analysis of the deposited data

Results flagged for a closer look

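Among the 6 control pups control male 3 lay far above the rest for 6 of the 8 genes, with a gap to the next pup that was large against the whole range of the group. It had 989.9 CPM of Sis, 99.7 CPM of Treh, 1049 CPM of Slc5a1, 237 CPM of Slc2a2, 37.9 CPM of Slc2a5 and 213.9 CPM of Khk. For Lct the gap was smaller, as control female 3 was high as well, at 2318 CPM beside 5240.1 CPM in its brother, and for Mgam control male 3 did not stand apart in this way. The 6 came from 32 ends of groups looked at. Chance marks about 1 in 20 groups if values are independent and normally spread. The 6 control pups are pairs of littermates, so that rate need not hold here. The 6 marks are 1 pup seen through 6 genes, not 6 independent signs. No stressed pup stood apart in this way for any of the 8 genes.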

How the results depend on the processing

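No member was called in any comparison under any alternative, with 1 exception. Leaving out single libraries gave 0 to 1 members called between males and females, the 1 being Mgam without stressed male 2, in a fit that called 1384 of 16389 genes. Of 308 refits of 30 fold changes other than single libraries left out, 291 kept direction and call, as did 292 of 312 with 1 library or dam left out. These 30 are not all the member fold changes fitted, and others turned sign as well, in the difference between the sexes and between males and females. The sign turned mainly without control dam 3. In males without both its pups the log2 fold change was 0.48 for Lct, 0.49 for Sis, 0.37 for Slc2a2, 1.26 for Slc2a5 and 0.076 for Khk, and in females 0.14 for Treh, 0.0086 for Slc5a1 and 0.10 for Khk. The difference between the sexes was then 0.94 for Lct, 0.65 for Sis, 0.46 for Slc2a2 and 1.45 for Slc2a5. With all dams these 4 were below 0. Between males and females Slc2a5 was then at -0.59, Sis at -0.13, Treh at -0.05, Slc5a1 at -0.02 and Khk at -0.05. With all dams all 8 genes were above 0 in that comparison. For Slc2a5 the difference also turned with limma-voom (0.31), limma on log2(FPKM + 0.1) (0.066) and the litter as a replicate block (0.037), and males against females with limma-voom (-0.018). Without the Yam1-rich stressed males 1 and 3 and control male 1 Mgam was at -0.40 in males and at -0.37 in the difference between the sexes. These are the 2 highest and the lowest of the 6 males for Mgam, so that this sign follows from the libraries left out and bears on nothing else. With 1 dam left out the range over litters was -4.39 to 0.10 for Sis, -3.28 to 0.012 for Treh, -1.63 to 0.11 for Slc2a2, -2.02 to 0.32 for Slc2a5 and -1.21 to 0.080 for Khk. With 1 library left out the range in males was -2.95 to 0.48 for Lct, -5.39 to 0.49 for Sis, -1.98 to 0.37 for Slc2a2, -2.80 to 1.26 for Slc2a5 and -1.78 to 0.076 for Khk. In females it was -1.15 to 0.14 for Treh, -0.15 to 0.10 for Mgam, -0.78 to 0.013 for Slc5a1 and -0.66 to 0.11 for Khk. The difference between the sexes spanned -4.63 to 2.24 for Sis, -4.01 to 0.59 for Treh and -2.15 to 1.90 for Slc2a5, and Slc2a5 between males and females -0.82 to 1.20. Among the ranges listed here, the ends of turned sign came without a pup of control dam 3, or the dam, except for Mgam in females. The Mgam sign there turned without stressed female 1 or control female 2. Ranges not listed held further turns. For the difference between the sexes, 7 of the 8 genes lay below 0 with all dams. Dropping control female 1 left 6 of them there, and dropping stressed female 2 also left 6. Dropping control male 3 left 0, and it put 7 of the 8 genes below 0 between males and females.

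With the dam number as a replicate block the log2 fold change over litters was -0.99 for Lct, -1.32 for Sis and 0.26 for Mgam, and with the litter as a block Mgam was at 0.52 between the sexes. No block changed a call. Between the sexes DESeq2 called 18 genes where edgeR called 8, and none was a member. The low counts of Treh and Slc2a5, at most 90 reads a library outside control dam 3, limit what can be seen of small changes in them.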
